A study of Mus musculus with 12 samples.

Results

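Liver and small intestine of control mice were compared gene by gene, with 3 RNA sequencing libraries from each tissue. The comparison used 6 of the 12 libraries of the study, chosen by their labels: the liver and small intestine libraries of mice given PBS. All mice in the study were C57BL/6, and the other 6 libraries came from liver and small intestine of mice given LCWE. These other libraries are used below only as a second set in which the same tissue difference was taken. The labels do not spell out LCWE and give no age, sex or intestinal segment. They do not say whether the libraries of a group came from separate animals, so the p-values measure the spread between these libraries, which may be technical. Of 34348 genes in the deposited table, 17253 had an RPKM of at least 0.5 in 3 or more of the 6 libraries and were tested. RPKM is the number of reads in a gene, divided by the length of the gene and by the reads of the library. Genes just inside that limit were Rspo1, Tle6 and St8sia4, whose values that decided entry were 0.500083, 0.500459 and 0.500522 RPKM. Just outside it were Adamts8, E2f7 and n-R5s56, at 0.499681, 0.499177 and 0.498924 RPKM.

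The liver is built mostly of hepatocytes, which make the proteins of blood plasma, release glucose during fasting, break down amino acids to urea and turn cholesterol into bile acids. The small intestine is lined by enterocytes, which carry a brush border of microvilli with digestive enzymes and nutrient carriers, and by goblet, Paneth, enteroendocrine and stem cells, above layers of connective tissue, immune cells and smooth muscle. Both epithelia arise from the endoderm and share several transcription factors, and they exchange bile acids, lipoproteins and nitrogen compounds through the portal vein and the bile duct.

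The promoters of 4 genes are shown because these genes mark the 2 tissues in the data below: Alb, albumin, the main plasma protein, Fabp1, the fatty acid binding protein of liver and upper intestine, Fabp2, the intestinal one, and Sis, sucrase-isomaltase, a brush border enzyme. Each is the RefSeq sequence of GRCm38.p6 from 250 bases before to 50 after the annotated start, 5′ to 3′ on the strand of the gene, and capitals mark every motif match found on either strand. The starts of Alb and Fabp1 in the deposited table lie 27 and 52 bases from the RefSeq starts, and those of Fabp2 and Sis coincide. The windows are chr5:90460620-90460919 on the plus strand for Alb, chr6:71199629-71199928 on the plus strand for Fabp1, chr3:122894822-122895121 on the plus strand for Fabp2 and chr3:72967814-72968113 on the minus strand for Sis.
Alb: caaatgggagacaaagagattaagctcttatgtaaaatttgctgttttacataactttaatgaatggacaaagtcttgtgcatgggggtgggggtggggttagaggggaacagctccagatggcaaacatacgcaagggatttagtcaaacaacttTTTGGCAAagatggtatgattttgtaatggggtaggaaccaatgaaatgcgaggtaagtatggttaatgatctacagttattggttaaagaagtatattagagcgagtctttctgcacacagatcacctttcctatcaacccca
Fabp1: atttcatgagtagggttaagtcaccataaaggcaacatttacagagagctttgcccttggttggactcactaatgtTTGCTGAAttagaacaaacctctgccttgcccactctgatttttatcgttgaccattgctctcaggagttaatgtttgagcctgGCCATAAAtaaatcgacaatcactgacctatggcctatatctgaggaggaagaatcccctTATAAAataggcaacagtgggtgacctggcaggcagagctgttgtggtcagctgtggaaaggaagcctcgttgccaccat
Fabp2: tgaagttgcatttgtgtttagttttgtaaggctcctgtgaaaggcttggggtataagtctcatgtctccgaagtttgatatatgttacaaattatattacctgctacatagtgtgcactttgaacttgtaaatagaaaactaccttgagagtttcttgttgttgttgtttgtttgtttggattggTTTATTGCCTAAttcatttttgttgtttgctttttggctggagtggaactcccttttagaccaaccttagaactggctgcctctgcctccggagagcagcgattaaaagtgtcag
Sis: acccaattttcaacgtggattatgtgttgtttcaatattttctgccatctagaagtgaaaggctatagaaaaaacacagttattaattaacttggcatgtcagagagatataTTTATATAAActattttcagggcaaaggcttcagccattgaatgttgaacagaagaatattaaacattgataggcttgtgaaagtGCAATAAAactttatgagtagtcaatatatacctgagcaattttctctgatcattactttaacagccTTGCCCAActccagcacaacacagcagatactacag
With the annotated start as 0, the Alb window held a C/EBP motif (TTGCNNAA) at -94. In Fabp1 there was a C/EBP match at -174, a CDX match at -90 and a TATA box (TATAAA) at -30. The CDX motif was searched as GCAATAAA, GCCATAAA, GTAATAAA or GTCATAAA. Fabp2 held a CDX match at -65 that overlapped a C/EBP match at -61. Sis held a CDX match at -53, overlapping TATA box matches on opposite strands at -138 and -134, and a C/EBP match at 14. None of the 4 windows held the other motifs searched, which were those of HNF4 (CAAAGTCCA), FOXA (TGTTTAC) and the zinc finger factors of the GATA family, searched as AGATAAG. Of the 12872 coding genes tested, 10331 had a promoter in the table. A C/EBP match was present in 8.64% of these promoters, a CDX match in 1.8% and a TATA box in 8.12%. A match is a run of letters and not a bound site.

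Most genes differed between the tissues. With limma on log2(RPKM + 0.5) and an adjusted p below 0.05, 13381 of 17253 genes passed (77.6%), of which 2915 were higher in liver (16.9% of the genes tested) and 10466 were higher in small intestine (60.7%). In the text below, higher in a tissue means past this threshold, log2 differences are liver minus intestine, and folds come from log2(RPKM + 0.5), so those of genes near 0 are too small. The excess on the intestinal side depended on the scaling of the libraries. RPKM divides by all reads of a library, and in liver the 10 most abundant genes took 17.4% to 20.4% of them, against 5.41% to 6.87% in the intestine. Scaling by the median ratio moved log2 differences toward liver, by a median of 0.79 among genes with a mean of at least 5 RPKM in both tissues, with 5708 genes then higher in liver (33.1%) and 6159 in intestine (35.7%). Liver made up 21.8% of the calls on the deposited scale, 48.1% after median-ratio scaling and 48.3% after quantile scaling. The call and its direction held under both the deposited and the median-ratio scale for 2915 genes higher in liver and 6159 higher in intestine. The median log2 difference over all genes tested was -0.71 on the deposited scale and -0.05 after median-ratio scaling.

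The number of genes detected also differed. Between 16966 and 17328 genes reached 0.5 RPKM in an intestinal library, against 13557 to 14077 in a liver library, at 30294594 to 44641504 reads in genes per library. Of the tested genes, 2880 reached 0.5 RPKM in the 3 intestinal libraries and in no liver library, and 611 in the 3 liver libraries and in no intestinal one. A gene of either kind entered the test through the tissue where it is high, so the count of such genes in a list says little. Counts are therefore given also for the members at 0.5 RPKM or more in the 6 libraries, called members detected in both tissues below. Of the 11811 genes at that level in the 6 libraries, 17.7% were higher in liver and 55.1% in intestine. A very abundant gene can reach 0.5 RPKM in the other tissue at a small share of its main level. In lists of such genes these counts too could hardly go the other way. Large differences lay on both sides: 622 genes (3.61%) were at least 8-fold higher in liver and 1264 (7.33%) in intestine, and at least 32-fold there were 292 (1.69%) and 412 (2.39%). Log2 values across genes correlated at 0.973 to 0.991 (Pearson's r) between libraries of a tissue and at 0.556 to 0.571 between libraries of different tissues, as a description over genes that are not independent.

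**Figure D1:**
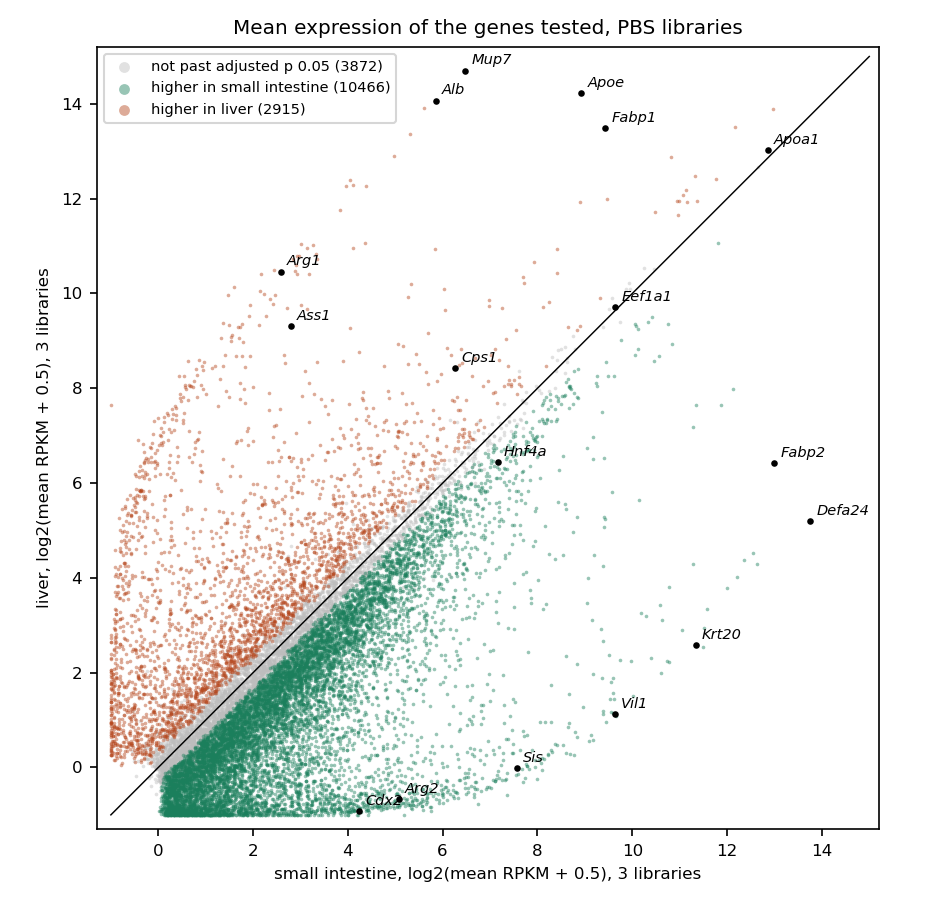
Mean RPKM of each of the 17253 genes tested in 3 liver libraries (vertical) against 3 small intestine libraries (horizontal), both as log2(mean + 0.5); colour shows the tissue in which a gene was higher at an adjusted p below 0.05, and the line marks equal levels. Mup7, Apoe and Alb stand highest in liver, Defa24 and Fabp2 highest in intestine, and Apoa1 lies near the line at a high level in both.

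The secreted proteins of hepatocytes gave the largest differences toward liver. All 24 plasma protein genes listed were tested and 24 were higher in liver, against 16.9% of all genes, with a median log2 difference of 7.38, and 21 of 21 were so among members at 0.5 RPKM or more in the 6 libraries. Alb measured 23556, 14595 and 13375 RPKM in liver replicates 2, 3 and 4, and 52.9, 60.2 and 59.2 RPKM in intestinal replicates 2, 3 and 4, a log2 difference of 8.17 (SE 0.22, adjusted p = 1.68e-07). The liver libraries lay far above the intestinal ones, and liver replicate 2 was the highest of the 6. The gene lies at chr5:90460897-90476602 on the plus strand (mm10, as in the deposited table). Ttr, which carries thyroid hormone and retinol binding protein, was 291-fold higher in liver at 5033 ± 636 RPKM (SD, n = 3). Apoa2, an apolipoprotein of high-density lipoprotein, was 263-fold higher, and Ahsg, the plasma protein fetuin A, 229-fold. Mup7 and Mup20, major urinary proteins that liver secretes into blood and the kidney passes into urine, stood at 26677 ± 5027 and 15370 ± 2278 RPKM in liver. Their reads may be split between near-identical copies of the family, so single Mup values are uncertain.

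Clotting and complement genes were also liver genes throughout the list. Of 32 listed and tested, 32 were higher in liver, against 16.9% of all genes, with a median log2 difference of 6.40. Among the 24 members at 0.5 RPKM or more in every library all 24 were, against 17.7% of all genes at that level. The 3 fibrinogen chains moved together. Fga measured 2401, 1588 and 1474 RPKM in liver against 8.35, 10.1 and 9.98 in intestine, and Fgb and Fgg were 201-fold and 189-fold higher in liver. Plg, the precursor of the clot-dissolving protease plasmin, was 197-fold higher. The 3 smallest differences were those of the complement genes Cfb, Masp2 and C4b. Cfb, complement factor B, had 305, 340 and 333 RPKM in liver and 49.9, 46.5 and 51.8 in intestine, a 6.54-fold difference with no overlap. C3, the central component of complement, was 34.8-fold higher in liver but still measured 56.7 ± 14.3 RPKM in intestine (SD, n = 3).

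The level of abundant genes in the other tissue varied widely. For the 64 genes with a mean of 1000 RPKM or more in liver, the intestinal level had a median of 2.71% of the liver level, and the lowest was 0.227%. For the 58 such genes in intestine, the liver level had a median of 17.2% of the intestinal level, and the lowest was 0.185%, that of Itln1. Plasma protein genes had intestinal levels of 0.332% (Ttr) to 1.02% (Hp) of those in liver, with a median of 0.444%. Paneth cell genes had a median liver level of 0.249% of the intestinal one and goblet cell genes 0.237%. The part of low expression and of reads or RNA from the other tissue in these low levels was not tested.

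**Figure D2:**
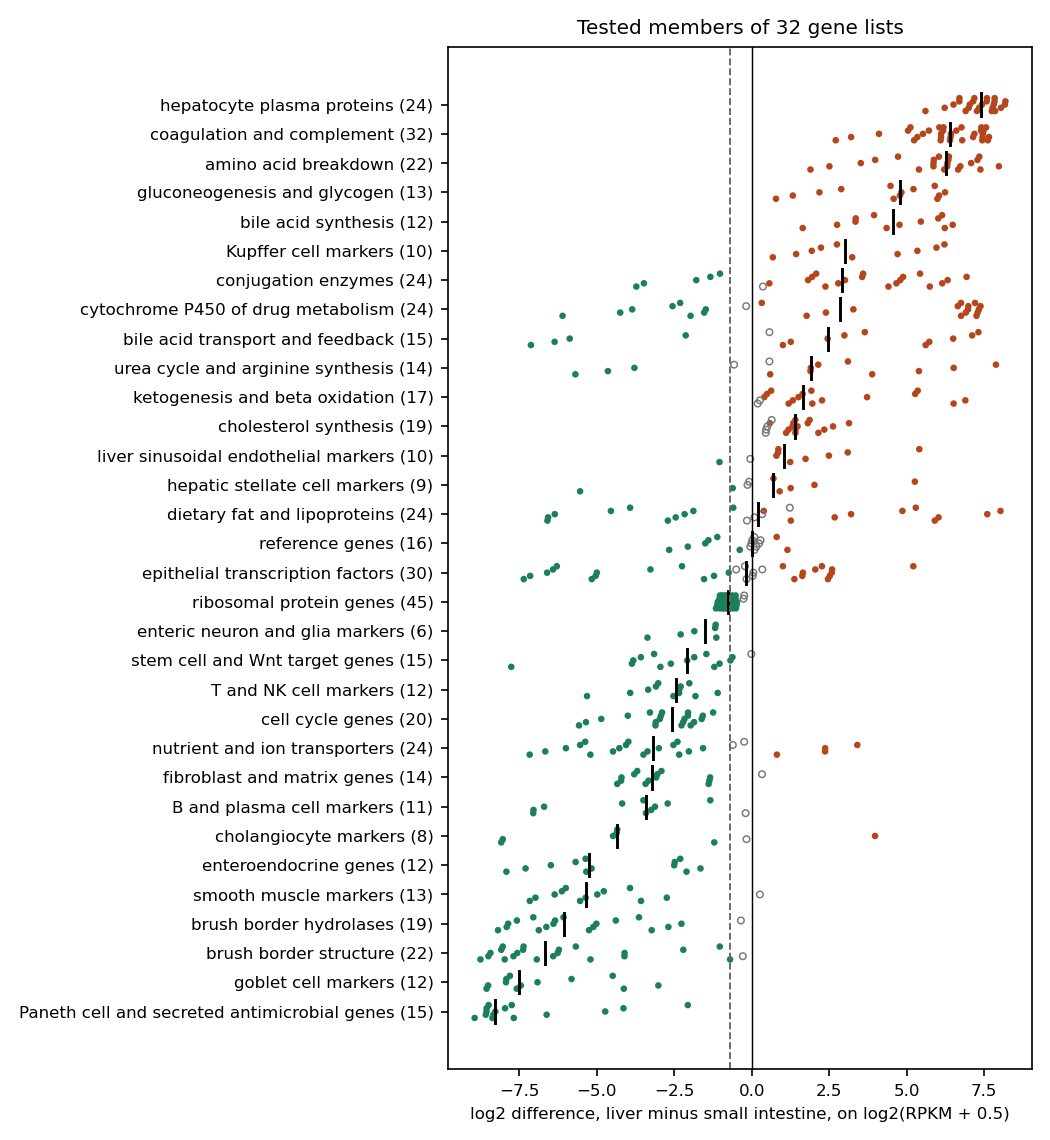
Log2 difference (liver minus small intestine, on log2(RPKM + 0.5)) of the tested members of 32 gene lists, with the number tested in brackets; filled points passed the test, open points did not, black bars are list medians and the dashed line is the median of all genes tested, -0.71. Plasma protein genes have a median of 7.38 at the top and Paneth cell genes one of -8.28 at the bottom, while ribosomal protein genes sit at the dashed line.

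Genes for making and storing glucose were higher in liver without exception in the list. All 13 were tested and 13 were higher in liver, against 16.9% of all genes, with a median log2 difference of 4.78. So were the 9 at 0.5 RPKM or more in every library, against 17.7% of all genes at that level. Pck1, the enzyme that commits carbon to gluconeogenesis, measured 213, 379 and 557 RPKM in liver and 14.9, 14 and 14.4 RPKM in intestine. The liver libraries spread widely but none came near the intestinal level. G6pc, which frees glucose from glucose 6-phosphate, was 27.5-fold higher in liver, with 6.45, 5.21 and 3.05 RPKM in intestine. Fbp1, fructose bisphosphatase, was 66.0-fold higher. Hk2, a hexokinase of muscle and other tissues, measured 0.6 ± 0.133 RPKM in liver and 9.62 ± 1.1 in intestine (SD, n = 3). Glycogen enzymes with a liver form and another form differed in opposite directions. Pygl, the liver glycogen phosphorylase, was 37.2-fold higher in liver and Pygb, the brain form, 6.82-fold higher in intestine. Gys2, the liver glycogen synthase, was 63.5-fold higher in liver and Gys1, the muscle form, 2.41-fold higher in intestine.

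Amino acid breakdown followed the same pattern. All 22 listed genes were tested and 22 were higher in liver, against 16.9% of all genes, with a median log2 difference of 6.26. So were the 13 at 0.5 RPKM or more in every library, against 17.7% of all genes at that level. Gnmt, which uses up excess S-adenosylmethionine, measured 900, 525 and 567 RPKM in liver and 1.91, 2.3 and 2 RPKM in intestine. Bhmt, which makes methionine from homocysteine and betaine, was the most uneven of those named, at 963, 379 and 319 RPKM in liver, with replicate 2 highest. Tdo2, which opens the ring of tryptophan, was 162-fold higher in liver. Mat1a, the liver form of methionine adenosyltransferase, measured 260 ± 36.1 RPKM in liver and 1.16 ± 0.109 in intestine (SD, n = 3). Its wider form Mat2a measured 8.24 ± 2.02 and 12.5 ± 2.92 RPKM, and the log2 difference of -0.58 missed the threshold (adjusted p = 0.0566, limma). It passed without intestinal replicate 2, at -0.76, and without liver replicate 4, at -0.72.

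Nitrogen handling divided between the tissues by step. The urea cycle joins ammonia to ornithine in mitochondria and frees urea from arginine in the cytosol, and the intestine is known to make citrulline from glutamine. Of 14 genes listed, 9 were higher in liver and 3 in intestine, with 2 not past the threshold. Of the 10 at 0.5 RPKM or more in every library 8 were higher in liver and 0 in intestine. The shares of all genes tested were 16.9% in liver and 60.7% in intestine, and 17.7% and 55.1% of those detected in both tissues. The mitochondrial steps were high in both tissues. Cps1, carbamoyl phosphate synthetase, measured 277, 403 and 348 RPKM in liver and 88.4, 73.7 and 67.9 in intestine, a 4.42-fold difference. Otc, which makes citrulline, measured 79.8, 63.5 and 67.1 RPKM in liver and 20.1, 19.3 and 16 in intestine, a 3.72-fold difference. Nags, which makes the activator of Cps1, differed by 1.51-fold, at 8.93 ± 1.69 RPKM in liver and 5.69 ± 0.277 in intestine (SD, n = 3).

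The cytosolic steps were far more one-sided. Ass1, which joins citrulline to aspartate, measured 685, 586 and 624 RPKM in liver and 5.6, 6.79 and 6.89 in intestine, and was 91.4-fold higher in liver. Asl, the next enzyme, was 14.8-fold higher. Arg1, the arginase that releases urea, measured 1600, 1312 and 1322 RPKM in liver and 4.99, 6.14 and 5.34 in intestine. Its mitochondrial counterpart Arg2 ran the other way, at 0.188, 0.0782 and 0.125 RPKM in liver and 44.7, 32.6 and 22.5 in intestine. Arg1 made up 99.99% of the summed Arg1 and Arg2 RPKM in each liver library and 10% to 19.2% of it in the intestinal ones. Gls2, the glutaminase of liver, was 42.1-fold higher in liver. Aldh18a1, which starts the path from glutamate to ornithine and proline, measured 25.3, 20.4 and 15 RPKM in intestine and 0.281, 0.315 and 0.343 in liver. Oat, which links that path to ornithine, was high in both, at 207 ± 34.1 RPKM in intestine and 142 ± 46 in liver (SD, n = 3). Its difference of -0.57 missed the threshold (adjusted p = 0.0682, limma) but passed without liver replicate 2, at -0.81. Slc25a15, the ornithine carrier of mitochondria, had overlapping groups, and its difference of 0.57 passed only without intestinal replicate 2, at 0.81, among the 6 fits that left out 1 library.

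**Figure D3:**
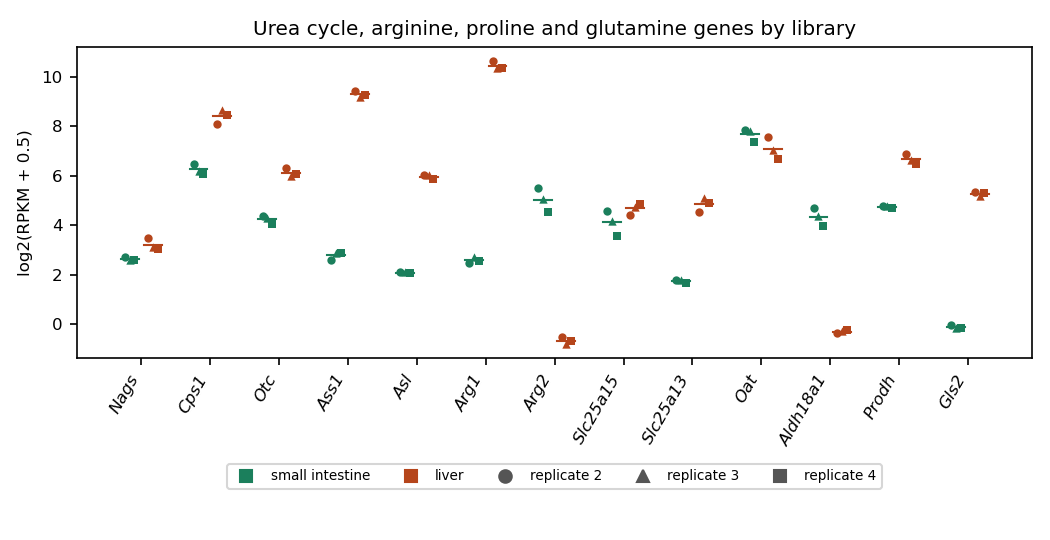
Log2(RPKM + 0.5) of 13 nitrogen-handling genes in each PBS library, green for small intestine and red for liver, with a bar at each tissue's mean and a marker shape for each replicate number. Cps1 and Otc are within about 2 log2 units between tissues, while Ass1 and Arg1 are high in liver and Arg2 and Aldh18a1 high in intestine.

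Fat oxidation and cholesterol synthesis differed less. Of 17 genes of ketogenesis and beta oxidation tested, 15 were higher in liver and 2 missed the threshold, with a median log2 difference of 1.64. Of the 15 detected in both tissues 13 were higher in liver. Among all genes, 16.9% of those tested and 17.7% of those detected in both tissues were higher in liver. Hmgcs1, a cytosolic enzyme of the cholesterol pathway, measured 201, 202 and 158 RPKM in liver and 43.6, 74.7 and 120 in intestine. The members that did not pass were the subunits of the mitochondrial trifunctional protein. Hadha measured 42 ± 3.44 RPKM in liver and 34.9 ± 3.04 in intestine, and Hadhb 4.29 ± 0.154 and 3.72 ± 0.497 RPKM (SD, n = 3). Hadha passed without liver replicate 2, at 0.33. Both passed as higher in liver after median-ratio scaling. Of 19 cholesterol genes, 15 were higher in liver and 4 did not pass, with a median of 1.41. Insig1, which holds the regulator of the pathway in the endoplasmic reticulum, was 8.80-fold higher in liver. The summed level of the list differed between the intestinal libraries, at 216, 308 and 439 RPKM in replicates 2, 3 and 4, against 873 to 1031 in liver.

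Bile acids are made in the liver, secreted into the gut, taken up in its last part and returned to the liver. All 12 genes of their synthesis were tested and 12 were higher in liver, against 16.9% of all genes, with a median log2 difference of 4.56. So were the 8 at 0.5 RPKM or more in every library, against 17.7% of all genes at that level. Cyp7a1, the rate-limiting enzyme, measured 16.7, 15.3 and 14.3 RPKM in liver and 0.0879, 0.12 and 0.0474 in intestine. Cyp8b1, which sets the share of cholic acid, was 64.8-fold higher in liver. The last steps, joining of coenzyme A by Slc27a5 and of taurine or glycine by Baat, were 89.4-fold and 70.6-fold higher. Cyp27a1, the first enzyme of the alternative path, kept 5.54 ± 0.418 RPKM in intestine against 92.7 ± 9.91 in liver (SD, n = 3).

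The carriers of bile acids differed in direction. Of 15 genes for transport and feedback, 10 were higher in liver, 4 in intestine and 1 did not pass. The shares of all genes tested were 16.9% in liver and 60.7% in intestine. Of the 7 detected in both tissues 4 were higher in liver and 2 in intestine, against 17.7% and 55.1% of all genes so detected. Slc10a1, the uptake carrier of hepatocytes, measured 83.9, 95.5 and 80.5 RPKM in liver and 1.17, 1.14 and 1.1 in intestine. Slco1b2, another hepatocyte uptake carrier, was 159-fold higher in liver. Abcb11, the export pump into bile, measured 96.8, 178 and 193 RPKM in liver and at most 0.753 in intestine. Slc51a and Slc51b, the paired exporter of enterocytes toward blood, were 58.7-fold and 140-fold higher in intestine. Fabp6, which binds bile acids inside ileal cells, measured 69.4, 1716 and 2991 RPKM in intestine and 7.72, 7.63 and 9.13 in liver. It was higher in intestine with any library left out, by -5.33 to -8.04 over the 3 fits that left out an intestinal library. Slc10a2, the uptake carrier of the ileum, was the member that did not pass. It measured 1.51, 17.6 and 68.4 RPKM in intestine and 36.8, 11.6 and 17.5 in liver, so the groups overlapped (log2 difference 0.57, SE 1.21). The sign followed single libraries, with -0.81 without intestinal replicate 2 and 1.74 without intestinal replicate 4.

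Genes of bile acid sensing were found on both sides. Nr1h4, the bile acid receptor FXR, measured 34.2, 31.1 and 30.8 RPKM in liver and 12.2, 14.6 and 21.6 in intestine, a 2.01-fold difference. Fgf15, the hormone that ileal cells send to liver, measured 2, 3.86 and 0.529 RPKM in intestine and at most 0.0166 in liver. Its receptor Fgfr4 and the coreceptor Klb were 7.94-fold and 5.45-fold higher in liver. Nr0b2, the corepressor SHP, varied within liver, at 15.7, 5.47 and 2.81 RPKM, and was at most 0.0583 RPKM in the intestinal libraries.

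Drug metabolism genes were found on both sides, with members of the same family differing in direction. Of 24 cytochrome P450 and related genes tested out of 25 listed, 15 were higher in liver and 8 in intestine. Of 24 conjugating enzymes the numbers were 18 and 5. The shares of all genes tested were 16.9% in liver and 60.7% in intestine. Among members detected in both tissues, the numbers were 9 and 3 of 13 for the former and 14 and 4 of 19 for the latter. Of all genes so detected, 17.7% were higher in liver and 55.1% in intestine. Cyp2e1, which oxidises ethanol, was 156-fold higher in liver, at 737 ± 79.5 RPKM (SD, n = 3). In the Cyp2c family, Cyp2c29 was 161-fold higher in liver and Cyp2c65 68.9-fold higher in intestine, with the caution that reads of these close relatives may be shared. In the Cyp3a family, Cyp3a11 measured 356, 463 and 443 RPKM in liver and 36.5, 48.5 and 43.7 in intestine, and Cyp3a13 ran the other way at 39.2 ± 6.48 and 114 ± 8.83 RPKM. Cyp4f14, a fatty acid hydroxylase, was 3.93-fold higher in intestine. Among conjugating enzymes, the glutathione transferases Gsta3 and Gstm1 were 122-fold and 25.4-fold higher in liver, and the sulfotransferase Sult1b1 11.2-fold higher in intestine.

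The brush border was the clearest intestinal group among the enterocyte lists. Of 19 hydrolases tested out of 20 listed, 18 were higher in intestine and 1 did not pass, against 60.7% of all genes, with a median log2 difference of -6.08. At 0.5 RPKM or more in every library, 9 of 10 were higher in intestine. Sis measured 194, 172 and 200 RPKM in intestine and 0.387, 0.486 and 0.6 in liver (log2 difference -7.58, SE 0.12, adjusted p = 3.01e-08). The 2 groups were each tight and lay far apart. Mep1b, a subunit of the protease meprin, was 233-fold higher in intestine. Anpep, aminopeptidase N, measured 664 ± 57.4 RPKM in intestine and 18.6 ± 0.26 in liver (SD, n = 3). The alkaline phosphatases split by tissue: Alpi, the intestinal form, was 99.0-fold higher in intestine, while Alpl, the form of liver and bone, was 2.69-fold higher in liver at only 2.1 ± 0.208 RPKM.

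Of 22 structural genes of the brush border and epithelium, 21 were higher in intestine, and 19 after median-ratio scaling. The shares of all genes tested were 60.7% and, after median-ratio scaling, 35.7%. Of the 12 detected in both tissues 11 were higher in intestine, against 55.1% of all genes so detected. Vil1, the actin-bundling protein villin, measured 866, 769 and 734 RPKM in intestine and 1.62, 1.6 and 1.81 in liver. Krt20, a keratin of mature enterocytes, was 432-fold higher in intestine, and the adhesion protein Epcam 271-fold. The keratin pair Krt8 and Krt18, which assemble together in simple epithelia, did not match. Krt8 measured 2487 ± 16.7 RPKM in intestine and 144 ± 15.6 in liver, whereas Krt18 measured 127, 152 and 154 RPKM in intestine and 146, 105 and 106 in liver, with overlapping groups. Krt18 passed only without liver replicate 2 among the fits that left out 1 library, at -0.44. As RPKM, Krt8 thus exceeded Krt18 in intestine and was close to it in liver.

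Nutrient carriers were found on both sides. Of 24 tested out of 26 listed, 18 were higher in intestine and 4 in liver, and of the 11 detected in both tissues 7 and 2, a share in intestine close to the 55.1% of all genes so detected. Slc5a1, the sodium-coupled glucose carrier, measured 199, 163 and 169 RPKM in intestine and 0.791, 0.598 and 0.818 in liver. Slc15a1, which takes up small peptides, was 101-fold higher in intestine and Slc34a2, a phosphate carrier, 64.0-fold. The facilitative sugar carriers differed in direction. Slc2a2, the glucose carrier of liver, measured 26.6, 30.9 and 29.6 RPKM there and 6.71, 1.71 and 0.849 in intestine, and Slc2a5, the fructose carrier, was 5.07-fold higher in intestine. Without intestinal replicate 2 the log2 difference of Slc2a2 grew from 3.41 to 4.09. Slc40a1, the iron exporter ferroportin, was also higher in liver, at 5.61 ± 1.74 against 0.672 ± 0.28 RPKM (SD, n = 3).

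Both tissues make lipoproteins. Of 24 genes for dietary fat and lipoproteins, 10 were higher in liver and 10 in intestine, against 16.9% and 60.7% of all genes, with a median log2 difference of 0.21. After median-ratio scaling 12 were higher in liver and 9 in intestine, with a median of 1.02. Of the 21 detected in both tissues, 9 were higher in liver and 8 in intestine on the deposited scale. Fabp2 measured 9408, 9206 and 5747 RPKM in intestine and 113, 70.4 and 71 in liver, and lies at chr3:122895072-122899506 on the plus strand. Fabp1, at chr6:71199827-71205023, measured 13105, 10883 and 10679 RPKM in liver, where it was even, and 1579, 398 and 98.3 RPKM in intestine, where replicate 2 was highest and replicate 4 lowest. Its log2 difference was 4.86 (SE 0.90, adjusted p = 0.00207), with 5.86 without intestinal replicate 2 and 3.86 without intestinal replicate 4. Enzymes and carriers that handle absorbed fat were intestinal. Npc1l1, the cholesterol uptake protein, measured 44.9, 47.8 and 46.8 RPKM in intestine and 0.0702, 0.075 and 0.074 in liver. Mogat2, which rebuilds triglyceride from monoglyceride, was 96.7-fold higher in intestine. Of the enzymes that complete triglyceride, Dgat1 was 23.4-fold higher in intestine and Dgat2 2.39-fold higher in liver. Mttp, which loads fat onto apolipoprotein B, was 3.69-fold higher in intestine. Apob itself measured 185, 146 and 138 RPKM in intestine and 129, 254 and 229 in liver, and passed only without liver replicate 2 among the fits that left out 1 library, as higher in liver by 0.64. Abcg5 and Abcg8, which together export sterols, were 5.49-fold and 4.49-fold higher in intestine. Apoe and Apoc1, neighbours on chromosome 7, were 39.2-fold and 261-fold higher in liver.

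The apolipoprotein cluster on chromosome 9 held neighbours with opposite patterns. Apoa1, Apoc3, Apoa4 and Apoa5 lie at chr9:46228580-46230466, chr9:46232933-46235636, chr9:46240696-46243459 and chr9:46268633-46271919, Apoc3 on the minus and the others on the plus strand. Apoa1, the main protein of high-density lipoprotein, measured 12712, 6427 and 5880 RPKM in liver and 8672, 7110 and 6521 in intestine, with overlapping groups. Its log2 difference was 0.09 (95% interval -0.64 to 0.81, adjusted p = 0.807), and it was -0.96 after quantile scaling, which was past the threshold. Apoc3, an inhibitor of lipolysis, was 9.21-fold higher in liver, with 23.2, 14.1 and 6.28 RPKM in intestine. Apoa4, which is secreted on chylomicrons, measured 6795, 3054 and 1365 RPKM in intestine and 202, 217 and 182 in liver. Apoa5, an activator of lipoprotein lipase, measured 330, 390 and 411 RPKM in liver and 1.39, 1.35 and 1.58 in intestine, and was 194-fold higher in liver.

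The intestinal libraries differed from each other in genes that mark position along the gut, without a label that gives the segment. The summed level of 8 proximal markers was 193, 85.7 and 38.1 RPKM in replicates 2, 3 and 4, and that of 8 distal markers 471, 2431 and 3993 RPKM. Lct, lactase, measured 86.5, 30.1 and 3.02 RPKM, and Gip, a hormone of upper intestinal cells, 92.2, 43.5 and 25 RPKM. Gata4, a proximal factor, had the same order at 8.34, 5.31 and 3.79 RPKM. Not every marker followed the sums: S100g measured 4.04, 4.49 and 4.26 RPKM, Slc40a1 was lowest in replicate 2, and Fgf15 was highest in replicate 3. Fabp1, Apoa4 and Slc2a2 had the order of the proximal genes, and Slc51a, Slc51b, Fabp6 and Slc10a2 that of the distal ones. The size of their differences from liver thus depends on which intestinal libraries are used. Fabp1, Fabp6 and Slc2a2 passed in the same direction with any library left out, whereas Slc10a2 changed sign. Sis and Epcam had neither order, with Epcam at 1275, 1403 and 1368 RPKM. Smooth muscle and fat cell markers were also lowest in replicate 2 in sum. The summed smooth muscle list was 1502, 2212 and 2283 RPKM, and the summed fat cell list 42.7, 82 and 113 RPKM. Of the fat cell list, Adipoq, the hormone adiponectin, was 1.18, 8.01 and 14.2 RPKM. Fabp4 was 4.08, 15.9 and 22.6 RPKM, while Cidec, a protein of lipid droplets in the same list, was 32.1, 32 and 29.5 RPKM. The part of segment and tissue content in these differences was not tested.

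**Figure D4:**
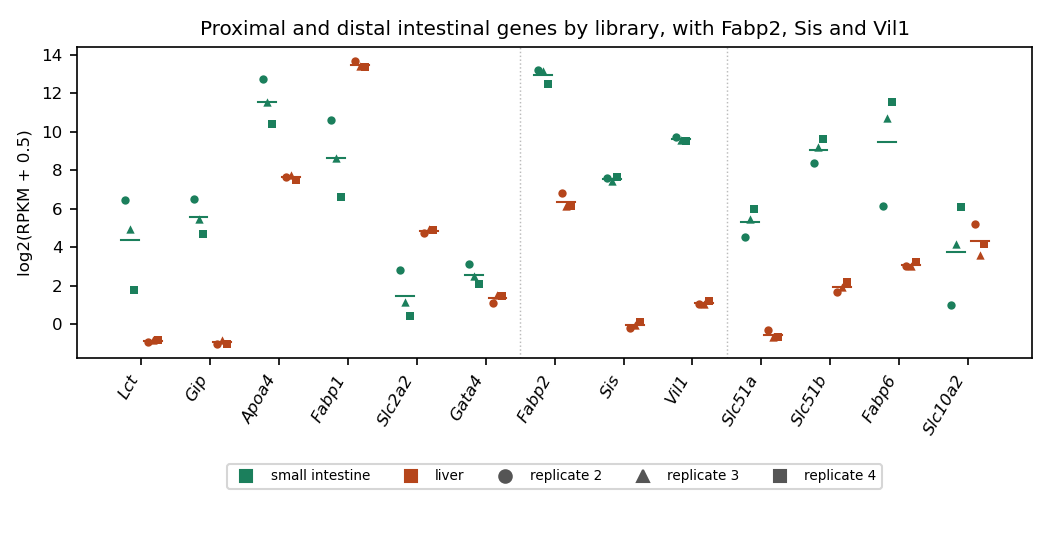
Log2(RPKM + 0.5) of proximal genes (left), Fabp2, Sis and Vil1 (middle) and distal genes (right) in each PBS library, green for small intestine and red for liver, with a bar at each mean and a marker shape for each replicate number. In the intestine, replicate 2 is highest for Lct (86.5 RPKM) and Fabp1 (1579 RPKM) and lowest for Fabp6 (69.4 RPKM) and Slc10a2 (1.51 RPKM).

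Among the gene lists, those of Paneth and goblet cells had the largest median differences toward intestine. Of 15 Paneth cell and antimicrobial genes tested out of 16, 15 were higher in intestine, with a median log2 difference of -8.28. So were 9 of 9 at 0.5 RPKM or more in every library. Among all genes, 60.7% of those tested and 55.1% of those detected in both tissues were higher in intestine. Defa24, an alpha defensin, was the most abundant gene of the intestine, at 12698, 14832 and 13737 RPKM, against 34.4, 36.2 and 37.4 in liver. Alpha defensins are near-identical, and reads may have been split between or dropped from their copies. Lyz1, the Paneth cell lysozyme, measured 2914 ± 39.7 RPKM in intestine and 7.23 ± 0.561 in liver (SD, n = 3). Lyz2, the lysozyme of macrophages, differed much less, at 107 ± 16.2 and 45.3 ± 10.1 RPKM. Itln1, intelectin, a lectin that binds microbial sugars, had the largest difference toward intestine of all genes tested, at -8.94, with 2691, 3094 and 2854 RPKM in intestine. Reg3b, an antimicrobial lectin, was uneven, at 972, 1058 and 3068 RPKM.

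All 12 goblet cell genes tested out of 14 were higher in intestine, against 60.7% of all genes, with a median of -7.52. So were the 5 detected in both tissues, against 55.1% of all genes so detected. Muc2, the main gel-forming mucin, measured 127, 172 and 193 RPKM in intestine and 0.358, 0.54 and 0.385 in liver, and Zg16, a lectin of mucus granules, was 377-fold higher in intestine. Tff3, a peptide secreted with mucus, measured 560, 694 and 699 RPKM in intestine and 16.3, 2.72 and 2.37 in liver, where replicate 2 stood apart. Its log2 difference was -6.92 with that library and -7.74 without it. Of 17 enteroendocrine genes listed 12 were tested and were higher in intestine, but only 1 was detected in both tissues, so the filter fixed the direction of most. The hormone granule proteins Chga and Chgb were 158-fold and 242-fold higher. Gcg, which gives rise to glucagon-like peptides, measured 21, 26.7 and 27.8 RPKM in intestine. Pyy, peptide YY of the distal gut, measured 1.78, 2.57 and 2.62 RPKM there and 0 in the 3 liver libraries.

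Cell division genes were higher in the intestinal libraries. On the deposited scale, 60.7% of all genes tested and 55.1% of those detected in both tissues were higher in intestine. All 20 cell cycle genes were higher in intestine, on the deposited and on the median-ratio scale, with a median log2 difference of -2.58, and so were the 14 detected in both tissues. Mki67, a marker of cycling cells, measured 93.4, 74.9 and 74.3 RPKM in intestine and 0.917, 1.52 and 1.21 in liver. Top2a, the topoisomerase of replicating cells, was 29.0-fold higher in intestine, and Pcna, the replication clamp, 3.07-fold. Of 15 stem cell and Wnt target genes tested out of 16, 14 were higher in intestine on the deposited scale, and 10 in intestine and 1 in liver after median-ratio scaling. The 8 detected in both tissues were higher in intestine on the deposited scale. Olfm4, of crypt base columnar cells, was 217-fold higher in intestine. Axin2, a Wnt target, was 8.89-fold higher. Lgr5, the stem cell receptor, was low in both, at 0.61, 0.764 and 0.801 RPKM in intestine and 0.393, 0.294 and 0.203 in liver, and its difference of -0.62 was 0.07 after quantile scaling, which missed the threshold. Znrf3, an inhibitor of Wnt signalling, measured 0.622 ± 0.0364 and 0.617 ± 0.147 RPKM, and passed as higher in liver after median-ratio scaling.

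Transcription factors of the endodermal epithelium are described in 3 sets, formed after their values were seen. Of 30 listed and tested, 11 were higher in liver, 13 in intestine and 6 did not pass. The shares of all genes tested were 16.9% in liver and 60.7% in intestine. After median-ratio scaling the numbers were 15, 10 and 5, with 33.1% of all genes higher in liver and 35.7% in intestine. Of the 20 detected in both tissues, 8 were higher in liver and 6 in intestine, against 17.7% and 55.1% of all genes so detected. Factors near 0 in liver formed the first set. Cdx2, the homeobox factor of intestinal identity, measured 16.9, 18.7 and 19.7 RPKM in intestine and 0.0594, 0 and 0.0225 in liver. Its relative Cdx1 measured 17.2 ± 2.38 and 0.0364 ± 0.0317 RPKM (SD, n = 3). Hnf4g measured 179, 129 and 103 RPKM in intestine and 0.315, 0.265 and 0.367 in liver. Isx, which controls vitamin A uptake genes, was 85.2-fold higher in intestine and Gata5, a GATA factor, 32-fold. The Krüppel-like factors Klf4 and Klf5 were 78.4-fold and 97.3-fold higher, and the epithelial factor Elf3 142-fold.

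A second set differed less between the tissues. Hnf4a, which both epithelia need, measured 135, 139 and 155 RPKM in intestine and 68.3, 91 and 98.6 in liver. It was higher in intestine on the deposited scale, with a log2 difference of -0.74 (adjusted p = 0.00351, limma). After median-ratio scaling the difference was 0.07 and missed the threshold. Because Hnf4g was near 0 in liver, Hnf4a made up 99.5% to 99.7% of the summed RPKM of both there and 43% to 60% in intestine. Foxa1 had 95% interval bounds of -0.79 and 0.89, and Creb3l3, a factor of lipid metabolism in both tissues, of -0.47 and 0.53. Creb3l3 passed as higher in liver by 0.84 after median-ratio scaling. Nr1i2, the drug receptor PXR, missed the threshold with a difference of -0.22, and passed as higher in liver by 0.58 after median-ratio scaling. The intervals of Foxa1 and Creb3l3 are too wide to show that their levels were equal.

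Factors of the third set were higher in liver. Foxa2 measured 13, 17.2 and 14.5 RPKM in liver and 1.78, 2.03 and 2.41 in intestine, and was 5.97-fold higher. Foxa3 was 3.13-fold higher, Prox1, needed for hepatocyte growth, 5.73-fold, and Nr1i3, the drug receptor CAR, 6.03-fold. Cebpa and Cebpb, whose motif was matched in each of the 4 promoter windows above, were 4.80-fold and 4.13-fold higher in liver. Onecut1 was the most uneven, at 3.47, 81.8 and 53.5 RPKM in liver and 0.137 to 0.265 RPKM in intestine. Its lowest liver value was above the intestinal ones, and replicate 2 was the low one. With an intestinal library left out its log2 difference was 5.14 to 5.27, and with a liver library left out it no longer reached 0.5 RPKM in 3 libraries and was not tested.

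**Figure D5:**
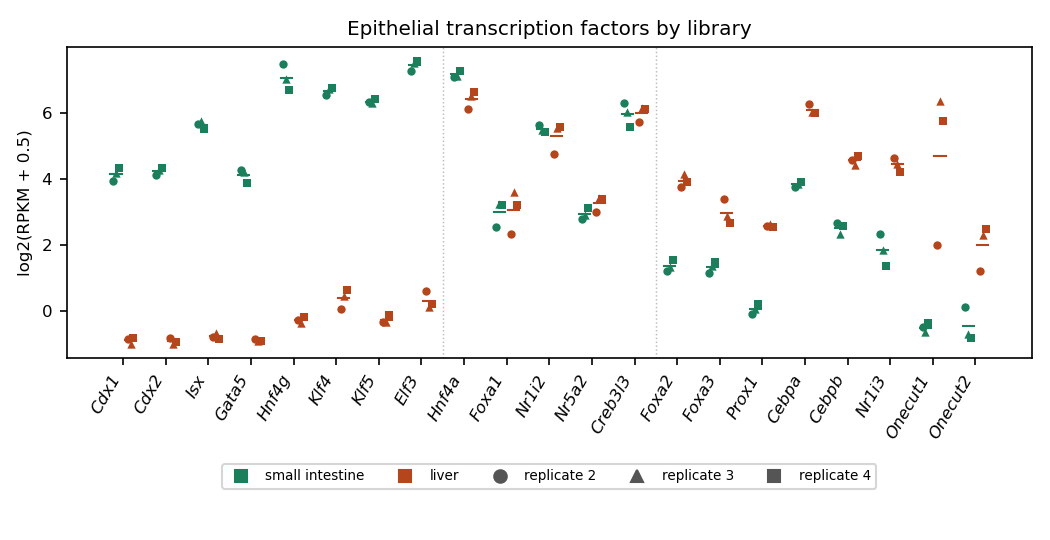
Log2(RPKM + 0.5) of 21 transcription factor genes in each PBS library, green for small intestine and red for liver, with a bar at each mean and a marker shape for each replicate number. Factors left of the first dotted line are near the bottom of the scale in liver. Those in the middle lie closer between the tissues, with Hnf4a higher in intestine. Those on the right are higher in liver, with Onecut1 low in liver replicate 2 (3.47 RPKM).

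Cell types other than the main epithelium differed as well. In bulk samples, fewer cells of a type and less RNA per cell cannot be told apart. Over all genes tested, 16.9% were higher in liver and 60.7% in intestine. Among all genes detected in both tissues the shares were 17.7% and 55.1%. All 10 Kupffer cell markers, 6 of them detected in both tissues, were higher in liver, with summed levels of 244 to 305 RPKM in liver and 8.85 to 12 in intestine. Clec4f, a receptor of these liver macrophages, measured 54.5, 46.9 and 50.4 RPKM in liver and 0.233, 0.43 and 0.307 in intestine, while Adgre1, which gut macrophages also express, differed by only 1.60-fold. Of 10 liver sinusoidal endothelial markers, 8 were higher in liver, and of the 7 detected in both tissues 5. Clec4g was 42.4-fold and Stab2 8.55-fold higher there, but Lyve1, shared with lymphatic vessels, was 2.06-fold higher in intestine on the deposited scale, and missed the threshold after median-ratio scaling at -0.32. Stellate cell markers were mixed, with 5 of 9 tested higher in liver and 2 in intestine, and 2 and 2 of the 6 detected in both tissues. Colec11 was 38.4-fold higher in liver and Des, desmin, which muscle also makes, 46.6-fold higher in intestine. Of 8 cholangiocyte markers tested out of 10, 6 were higher in intestine, among them Krt7 and Krt19, which the intestinal lining also expresses. Of the 5 detected in both tissues 4 were higher in intestine. Spp1, osteopontin, was 15.7-fold higher in liver.

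Muscle and matrix genes were higher in intestine. The shares higher in intestine over all genes were 60.7% of those tested and 55.1% of those detected in both tissues. Of 13 smooth muscle genes, 12 were higher in intestine, and 8 of the 9 detected in both tissues, with Myh11, smooth muscle myosin, at 539, 774 and 876 RPKM there and 3.24, 4.37 and 6.33 in liver, and Actg2, enteric actin, 126-fold higher. Of 14 fibroblast and matrix genes 13 were higher in intestine, and 8 of the 9 detected in both tissues, and Col6a1, a collagen chain, was 18.4-fold higher. Of 13 neuron and glia markers listed, 6 were tested and 0 were detected in both tissues, so the filter fixed their direction. In intestine Vip, the enteric neuropeptide, measured 4.87 ± 0.528 RPKM (SD, n = 3). Of 14 T and NK cell markers 12 were tested, but only 1 was detected in both tissues, and was higher in intestine. Of 11 B and plasma cell markers tested, 4 were detected in both tissues and 3 of these were higher in intestine. Gzma, a granzyme of intraepithelial lymphocytes, measured 69.7, 36.5 and 14.6 RPKM in intestine. Igha, the constant region of IgA, measured 199, 190 and 239 RPKM in intestine and 1.12, 1.07 and 1.07 in liver, and Jchain, which joins IgA molecules, was 104-fold higher in intestine.

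Markers of other tissues were also counted, against 16.9% of all genes tested higher in liver and 60.7% in intestine. Of 5 colon markers tested out of 8 listed, 4 were higher in small intestine and 1 in liver. None of these 5 was detected in both tissues. All 3 markers of interstitial cells of Cajal tested were higher in intestine, with 1 detected in both tissues. Of 7 fat cell markers tested, 2 were higher in liver and 4 in intestine, with 1 and 3 of the 4 detected in both tissues. Of 5 erythroid markers 4 were higher in liver, with 3 of the 4 detected in both tissues. Of 12 pancreatic markers, 3 were tested, and Clps, colipase, measured 26.3, 35.1 and 30.4 RPKM in intestine and 0, 0.203 and 0 in liver. Of these 3, 2 were higher in intestine and 1, Cela1, did not pass. Cela1 measured 5.98, 4.33 and 2.45 RPKM in intestine and 6.13, 8.22 and 4.77 in liver. After median-ratio scaling Cela1 passed as higher in liver, by 1.30. The summed pancreatic list was 34.1 to 42.1 RPKM in intestine, most of it Clps, and 5.33 to 8.90 in liver, most of it Cela1. Haemoglobin genes took at most 0.00274% of the reads counted in genes except in liver replicate 2, at 0.0116%. There Hbb-bs measured 88.6 RPKM against 20.5 and 21.0 in liver replicates 3 and 4. Without liver replicate 2 the log2 difference of Hbb-bs fell from 2.17 to 1.48. Reads of close haemoglobin copies may have been split or dropped, so these values are uncertain. Liver replicate 2 also stood apart in Onecut1 and Tff3 above.

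Genes often used as references and ribosomal protein genes showed how small differences turn on the scale. Of 16 reference genes, 2 were higher in liver, 6 in intestine and 8 did not pass on the deposited scale. After median-ratio scaling 10 were higher in liver and 4 in intestine. The shares of all genes in liver and intestine were 16.9% and 60.7% on the deposited scale. They were 33.1% and 35.7% after median-ratio scaling. Actb, beta actin, was 6.35-fold higher in intestine, at 538, 578 and 605 RPKM against 80.4, 99.6 and 90.5 in liver. Hprt measured 36.5 ± 1.99 RPKM in intestine and 36.9 ± 3.47 in liver (SD, n = 3), and Eef1a1, the elongation factor, 794 ± 40.6 and 843 ± 55.1 RPKM. Of 45 ribosomal protein genes, 43 were higher in intestine on the deposited scale with a median log2 difference of -0.78, near that of all genes, and after median-ratio scaling 0 were higher in intestine and 2 in liver. Rpl3 measured 219, 227 and 211 RPKM in intestine and 130, 90.4 and 87 in liver. Among genes above 100 RPKM in both tissues, those with the smallest differences included Atp6v1f, of the vacuolar proton pump, at 105 ± 4.45 and 104 ± 5.2 RPKM and B2m, the light chain of MHC class I, at 333 ± 37.6 and 331 ± 47.5 RPKM. Both passed as higher in liver by 0.80 after median-ratio scaling.

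Ratios of related genes were also taken within each library, on RPKM + 0.5. Of 15 listed pairs, the ratio differed without overlap between the tissues in 14, against 81.4% of single genes whose groups did not overlap. The widest difference was that of Arg1 over Arg2, at 13.57 log2 units, followed by Fabp1 over Fabp2 at 11.43. Prodh2 over Prodh, 2 proline dehydrogenases, differed by 4.46 units, the smallest of the 14.

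The same tissue difference was taken in the 6 libraries of mice given LCWE. There 13613 of 17468 genes passed (77.9%), with 2811 higher in liver (16.1%) and 10802 in intestine (61.8%). Of the genes called in PBS libraries, 11873 were called in the same direction in LCWE libraries, which is 88.7% of the PBS calls and 87.2% of the LCWE calls, and 27 were called in the opposite direction. For Alb the log2 difference was 8.17 in PBS and 7.28 in LCWE libraries, and for Arg1 7.88 and 7.29. For Sis it was -7.58 and -7.22, for Vil1 -8.50 and -8.05, and for Cdx2 -5.16 and -5.14. In the LCWE intestine, Alb measured 51.6, 60.2 and 145 RPKM and Arg1 5.44, 6.03 and 15.6 in replicates 1, 2 and 4. Replicate 4 was the highest for both. In the LCWE liver Alb measured 10519, 12340 and 13391 RPKM in replicates 1, 2 and 4. The tissue difference itself differed between PBS and LCWE libraries, by the interaction term of limma at an adjusted p below 0.05, for 136 of 17253 genes. Some markers of gut position also differed between PBS and LCWE intestine, with Lct at 86.5, 30.1 and 3.02 against 0.186, 1.46 and 0.138 RPKM. The part of gut position in these 136 genes was not tested.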

How the data were processed

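RNA was measured by sequencing in liver and small intestine libraries, which the labels describe as total RNA extracted with TRIzol, treated with DNase I and read on an Illumina instrument. The authors deposited gene values as RPKM, a normalized unit and not counts, with gene positions and lengths. Per the submitters' processing notes, Trimmomatic 0.36, featureCounts of Subread 1.5.1, edgeR 3.12.1 and mm10 were used. The aligner and the use of strand are not given in the sources used here, so reads of overlapping antisense genes cannot be told apart. Of 16 library columns, 12 matched the labels and 4 were not used.

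RPKM times gene length gave whole reads (tolerance 0.001), from which the totals of 30294594 to 44641504 reads per library come. Genes that reached 0.5 RPKM in 3 of the 6 libraries were tested two-sided with limma 3.58.1 (R 4.3.3) on log2(RPKM + 0.5), with a mean-variance trend and Benjamini-Hochberg adjustment over all genes tested. For a single value, 3 libraries against 3 allow an exact permutation p no lower than 0.1, so none is given. The fit was tested on simulated data.

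The members and gene lists were chosen with earlier results of these data known. Named genes are the largest differences in each direction (all, and among genes at 5 RPKM or more in both tissues), the most abundant of each tissue, the most even above 100 RPKM, the most abundant members of each list and the members of related pairs; other members of the lists were named after their values were seen. Some results on single genes are not reported here. Motif shares among genes higher in liver or in intestine are void, since only 76.3% and 76.2% of those genes had a promoter in the RefSeq table. Same-numbered libraries of the tissues were not paired by the labels. Alternatives were other pseudocounts, filters, scalings and fits, the replicate number as a block, and each library left out.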

Additional observations from a re-analysis of the deposited data

Results flagged for a closer look

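For 7 of the genes examined, the liver minus intestine difference itself differed between LCWE and PBS libraries by the interaction term of limma (adjusted p below 0.05 over 17253 genes). The change of the log2 difference, LCWE minus PBS, was 5.60 for Cyp2b10 (adjusted p = 0.00147), 3.59 for Marco (adjusted p = 0.0381), 2.44 for Cyp3a11 (adjusted p = 0.0084) and 2.18 for Creb3l3 (adjusted p = 0.0337). It was 1.08 for Pcx (adjusted p = 0.0213), -1.70 for Nr1h4 (adjusted p = 0.0244) and -0.93 for Gcg (adjusted p = 0.0337). Cyp2b10, a drug-metabolising P450, measured 20.5, 12.8 and 6.67 RPKM in the PBS intestine and at most 0.291 in the PBS liver. Its log2 difference was -4.25 in PBS and 1.36 in LCWE libraries. Marco, a scavenger receptor of macrophages, measured 11.9, 21.7 and 43.4 RPKM in the PBS liver and 1.06, 2.82 and 2.26 in the PBS intestine. Pcx, pyruvate carboxylase, measured 47.3, 61.6 and 57.1 RPKM in the PBS liver and 6.44, 6.37 and 8.39 in the PBS intestine. The intestinal libraries of the PBS and LCWE groups also differed in genes that mark position along the gut. Lct measured 0.186, 1.46 and 0.138 RPKM in the LCWE intestine, against 86.5, 30.1 and 3.02 in the PBS intestine. Fabp6 measured 4837, 4843 and 3517 RPKM against 69.4, 1716 and 2991, whereas Fgf15 measured 2.36, 2.45 and 1.47 against 2, 3.86 and 0.529. The part of gut position in the interaction terms was not tested.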

How the results depend on the processing

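The number of genes called, 13381 of 17253, was 8634 when 0.5 RPKM was asked of the 6 libraries and 5521 when differences were tested against a fold of 2; fewer genes were tested in the first and a larger difference was asked in the second. Leaving out 1 library gave 9276 to 13095 calls, and 10082 to 12510 in the LCWE libraries. Each fit then had fewer samples, and the filter still asked 0.5 RPKM of 3 libraries. Fewer genes were thus tested, 14260 to 16568 in the PBS and 14827 to 16860 in the LCWE libraries. After leaving out the 50 most abundant genes from the totals, 3955 genes were higher in liver and 8419 in intestine. With voom on the recovered reads 13250 genes were called, 13132 of them as in the main test. Same-numbered libraries did not deviate together (correlations of 0.031, -0.075 and 0.088), and with the replicate number as a block 13164 genes were called, and 13405 in the LCWE libraries.

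Small differences changed sign with the scaling, and the cause was not tested beyond the shift of 0.79. After median-ratio scaling the log2 difference was 0.80 for Atp6v1f, 0.80 for B2m, 0.07 for Hnf4a, 0.58 for Nr1i2 and 0.43 for Znrf3. After quantile scaling it was -0.96 for Apoa1, 0.07 for Lgr5 and 0.71 for Znrf3. With the 50 most abundant genes left out it was 0.36 for Atp6v1f.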

Other observations

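Mitochondrially encoded genes took 4.35% to 4.60% of the reads in genes in the liver libraries and 1.88% to 2.11% in the intestinal ones. Between 135 and 209 genes held 50% of the reads in a liver library, against 623 to 678 in an intestinal one. T and NK cell markers differed between the intestinal libraries, with summed levels of 138, 89.9 and 60.2 RPKM in replicates 2, 3 and 4. B and plasma cell markers did not have that order, at 2703, 2789 and 3345 RPKM.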
